A study of Homo sapiens with 16 samples.

Results

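Conversion rates of newly made RNA were compared between ALKBH5 knockdown and control THP-1 cells at 0 h of chase, the moment at which a 1 h labelling pulse ended. THP-1 is a human monocytic leukaemia line. The comparison used 4 of the series' 16 libraries, 2 control and 2 knockdown, and 10549 of the 60564 genes in the table. Genes were taken at an abundance of at least 5 CPM, the table's library-scaled read abundance, which 10553 genes reached, and 4 of these had no rate above 0 in any library. Genes just inside that minimum (CPM of 5 to 6, 686 genes) had a median rate of 0.613% in control and 1.27% in knockdown, and those just outside (CPM of 4 to 5, 830 genes) had 0.600% and 1.28%. In every library used here the cells had received 100 µM 4-thiouridine (4sU) for 1 h, were washed, and went into medium with 10 mM uridine. The control cells were wild type and the other group carried the ALKBH5 knockdown, called A5-KD in the labels, which give neither the knockdown construct nor whether a single clone was used. The 12 libraries collected after 1.5, 4.5 and 7.5 h of chase served to estimate the spread between replicates and to ask whether the genotype effect at pulse end differed from the later ones.

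ALKBH5 is a demethylase that removes N6-methyladenosine (m6A), the most common internal methyl mark of mRNA, and m6A is read by proteins that act on RNA decay, splicing and translation. Cells given 4sU build it into new transcripts in place of uridine, and in SLAM-seq such positions are read as T-to-C conversions. At the end of a pulse the rate of a gene reflects the share of its RNA that is new and how densely that RNA took up the label, so short-lived transcripts have high rates and stable ones have low rates. The rate is a share and carries no information on how much of a transcript is present.

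The rate is given here as converted bases in percent of the T bases sequenced for a gene. The number of T bases behind each value is unknown, and no library from cells without 4sU was used, so the mismatch background was not measured. The labels do not say that replicates came from separate cultures, and p-values may therefore measure technical spread between libraries only. Columns with the initial S were taken as knockdown by elimination, since those with the initial C were control. Markers of the THP-1 monocytic line were present, 8 of 11 at a CPM of at least 5, with FCER1G highest at 1425 CPM, while the defining markers CD14, ITGAM and MPO were at 2.22, 1.93 and 0.185 CPM. Of the erythroid and epithelial marker lists no gene reached a CPM of 5, and of 19 lymphoid markers 3 did. The CPM column is a single value per gene and names no library, so these levels could not be compared between genotypes.

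Rates were higher in knockdown across almost the whole transcriptome. The median gene had a rate of 0.543% and 0.561% in the control libraries and 1.22% and 1.20% in the knockdown libraries. Both knockdown libraries lay far above both controls, and the ratio of the mean medians was 2.19. Genes with a rate above 1% made up 12% and 12.6% of genes in control and 58.6% in each knockdown library. The limma test called 5903 genes higher in knockdown, 56% of those tested, and 10 lower, 0.0948%. Groups did not overlap, with knockdown higher, for 83% of genes, and with knockdown lower for 1.2%. The median effect was 1.03 on the log2(rate + 0.05) scale, on which effects are given below, and the middle of the distribution ran from 0.71 to 1.29 between the lower and upper quartiles. This scale understates the change of genes with low rates.

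**Figure D1:**
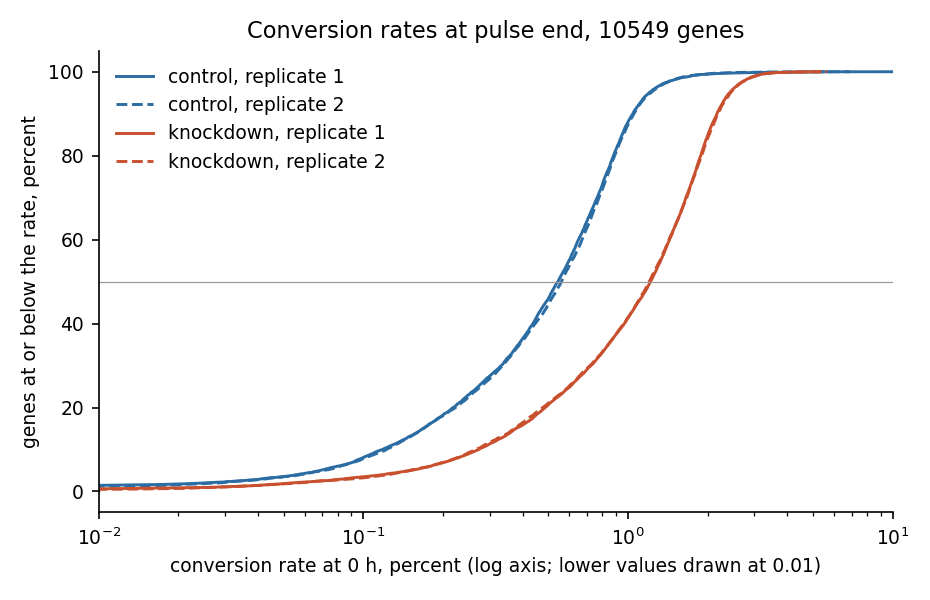
Cumulative share of 10549 genes (vertical axis, percent) at or below a conversion rate at 0 h (horizontal axis, percent, log scale), with one line per library. The curves of replicates nearly coincide, and both knockdown curves (medians 1.22% and 1.20%) lie to the right of both control curves (medians 0.543% and 0.561%) over almost the whole range.

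The order of genes was largely kept between genotypes. Across genes, which are not independent replicates, Spearman's rho was 0.747 between the control libraries, 0.847 between the knockdown libraries and 0.756 to 0.762 between a control and a knockdown library. Control and knockdown thus ranked genes about as alike as the control replicates did each other.

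The ratio between genotypes was similar for genes with slow and fast labelling. Genes were binned by their control rate at 1.5 h, libraries outside the comparison. In the lowest decile the median rates were 0.0924% and 0.0919% in control and 0.186% and 0.187% in knockdown, a ratio of 2.02. In the fifth decile they were 0.586% and 0.601% against 1.33% and 1.32%, a ratio of 2.23, and in the highest 0.885% and 0.883% against 1.75% and 1.79%, a ratio of 2.0. The gap in percentage points widened from 0.0942 in the lowest decile to 0.887 in the highest, while the ratio stayed between 2.0 and 2.23 in all 10 deciles. By these medians the knockdown difference was close to a common factor rather than a fixed number of percentage points. Single genes of the lowest decile followed it less often. There the groups did not overlap, with knockdown higher, for 59.1% of genes, against 83% of all, and 36.6% were called higher, against 56%. By abundance the ratio was 2.20 for genes with a CPM of 5 to 10 and 2.12 for the 137 genes at 1000 CPM or more. The share called higher rose over the same classes from 27.7% to 94.9%, as the median standard error of the effect fell from 0.56 to 0.11 log2. The counts of the gene lists that follow stand against the 56% called higher among all genes, a share that rose with abundance.

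**Figure D2:**
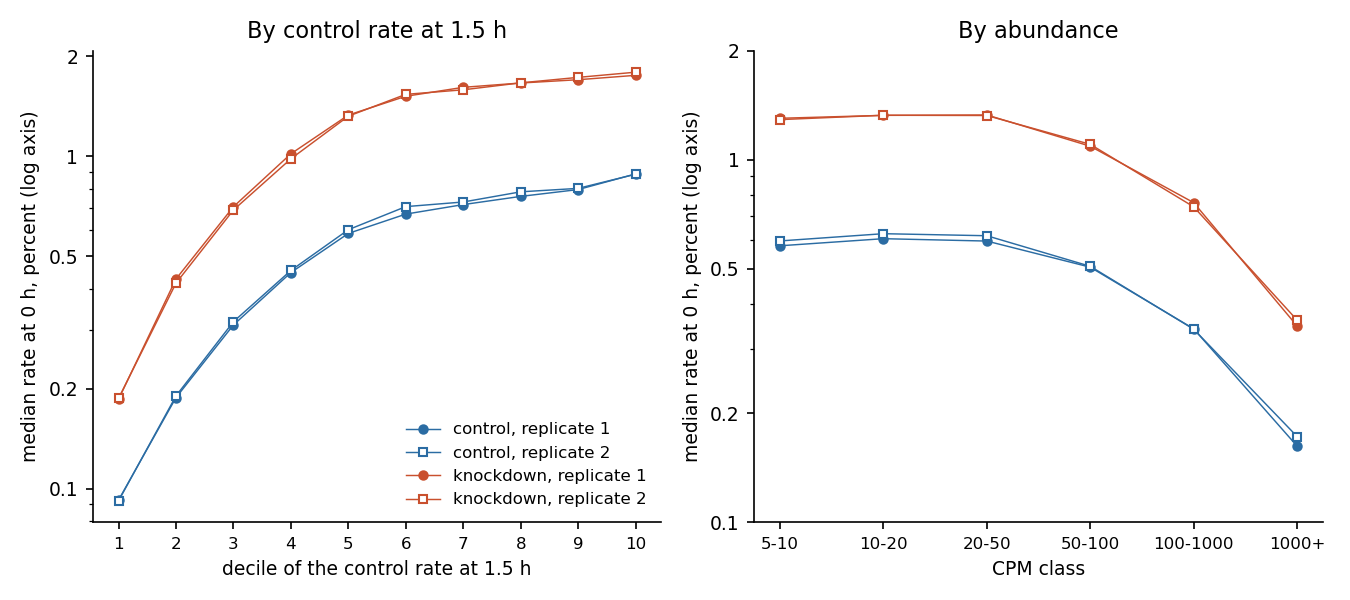
Median conversion rate at 0 h (vertical axes, percent, log scale) in each of the 4 libraries, for genes in deciles of their control rate at 1.5 h (left) and in classes of CPM (right). On the log axis the control and knockdown lines run nearly parallel, with a ratio of 2.0 to 2.23 over the deciles.

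Lists of short-lived transcripts had among the highest rates in both genotypes. Immediate early and short-lived mRNAs had list medians of 0.916% and 1.01% in control and 1.95% and 2.01% in knockdown, with 14 of 28 tested genes called higher, 50% against the 56% of all genes, and none lower. MCL1, an antiapoptotic BCL2 family member with a short-lived mRNA, had rates of 1.01% and 1.04% in control and 2.70% and 2.49% in knockdown (effect 1.30 ± 0.23 SE, limma adjusted p = 0.0010). KLF6, a Kruppel-like transcription factor, rose from 0.985% and 0.824% to 2.06% and 1.94% (limma adjusted p = 0.050 without control replicate 2). SGK1, a serum-induced kinase, had 1.80% and 1.83% in control and 2.60% and 1.24% in knockdown, overlapping groups with an effect of -0.01. Zinc finger factors of the ZNF family had list medians of 0.891% and 0.980% against 2.0% and 1.98%, with 31 of 45 called higher.

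Cytokine and chemokine mRNAs of these monocytic cells were also higher in knockdown. Among cytokines and NF-kB feedback genes, 22 of 28 were called higher, where 56% of all genes were, and none lower. The groups did not overlap, with knockdown higher, for 28 of the 28, and for 83% of all genes. The chemokine CCL2 had 1.01% and 1.03% in control and 2.35% and 2.36% in knockdown (effect 1.17 ± 0.07 SE, limma adjusted p = 1.8e-06). CCL3 rose from 0.980% and 1.06% to 2.48% and 2.61%. CCL5, with a lower rate, went from 0.274% and 0.287% to 0.473% and 0.517% (effect 0.72). Chemokines with high and with low rates therefore both rose, and the effect of CCL5 lay under the median gene's 1.03. CCL3 and CCL4L2 have near-identical relatives, between which reads may have been split.

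Transcripts of the protein synthesis and energy machinery had low rates and most were called higher, as were most genes of like abundance. Median abundances were 449 CPM for cytosolic ribosomal protein, 369 CPM for respiratory chain and 97.7 CPM for mitochondrial ribosomal protein mRNAs. Of all genes 56% were called higher, of those at 100 to 1000 CPM 87.7%, and of those at 50 to 100 CPM 76.3%. Cytosolic ribosomal protein mRNAs, among the most stable in the cell, had list medians of 0.159% and 0.162% in control and 0.366% and 0.384% in knockdown, with 66 of 79 called higher and none lower (median effect 1.02). Nuclear-encoded respiratory chain mRNAs had 0.144% and 0.142% against 0.333% and 0.350%, with 63 of 67 higher. Mitochondrial ribosomal protein mRNAs had 0.316% and 0.301% against 0.722% and 0.690%, with 39 of 46 higher. RPS24, a small subunit protein, rose from 0.181% and 0.186% to 0.565% and 0.501%, and COX7A2, a cytochrome c oxidase subunit, from 0.127% and 0.136% to 0.331% and 0.350%. Ribosomal protein genes have many processed pseudogenes, and reads may have been split between them.

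Mitochondrially encoded mRNAs, transcribed inside the organelle by its own polymerase, were called higher in 13 of 13 cases. Their list medians were 0.389% and 0.386% in control and 0.969% and 0.952% in knockdown, a ratio of 2.48. MT-CO2, a cytochrome c oxidase subunit, rose from 0.389% and 0.378% to 0.979% and 1.01%, and MT-ND1, a complex I subunit, from 0.428% and 0.466% to 1.16% and 1.19%. Their median effect was 1.18, against 1.03 for all genes tested, and after centring none of the 13 was called (median 0.11). The 13 had a median abundance of 442 CPM. Of all genes at 100 to 1000 CPM 87.7% were called higher, against 56% of all genes tested. Other transcripts of the organelle had smaller median effects. Of 12 mitochondrial tRNA genes 4 were called higher, with a median effect of 0.59, and 2 were called lower after centring. Their mean list medians were 0.109% in control and 0.224% in knockdown, a ratio of 2.06, at rates where the effect scale understates change. The 2 mitochondrial rRNA genes were both called higher, with a median effect of 0.52 and a ratio of 1.68, and 1 was called lower after centring. Nuclear copies of mitochondrial genes could share some of these reads.

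Most genes that act on RNA itself were called higher. Of 18 tested writers, erasers and readers of m6A, 15 were called higher, against 56% of all genes, and none lower, with a median effect of 1.17. FTO, the other m6A demethylase, had 0.819% and 1.01% in control and 2.32% and 2.05% in knockdown (effect 1.22 ± 0.20 SE, limma adjusted p = 0.00065). WTAP, a subunit of the m6A writer complex, rose from 0.850% and 0.823% to 1.81% and 1.77%. The readers HNRNPC and HNRNPA2B1 rose by 1.09 and 0.68, the latter by 0.45 without knockdown replicate 2. SR and HNRNP splicing factors were called higher in 32 of 33 cases, and mRNA decay factors in 34 of 45. Genes of nucleoside salvage and 4sU handling, through which the label reaches the nucleotide pool, were called higher in 6 of 12 cases, 50% and so under the 56% of all genes. UCK2, a uridine-cytidine kinase, went from 0.874% and 0.610% to 1.47% and 1.80%, and CTPS1, a CTP synthase, from 0.736% and 0.848% to 1.94% and 1.85%. These are the labelling rates of the genes' own mRNAs and do not measure enzyme levels.

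Leukaemia regulators were called higher more often than the 56% of all genes, and the proliferation lists lay close to that share. Mitosis and spindle genes were called higher in 27 of 43 cases, 62.8%, and DNA replication genes in 26 of 44, 59.1%, with median effects of 0.93 and 1.04. Their median abundances were 35.1 and 26.6 CPM, and of all genes with a CPM of 20 to 50, 64.6% were called higher. Regulators of MLL-fusion leukaemia, the class to which THP-1 belongs, had list medians of 0.766% and 0.872% against 1.95% and 2.05%, with 18 of 23 higher and a median effect of 1.17. Their median abundance was 42.1 CPM, so their 78.3% stands against the same 64.6% of all genes at 20 to 50 CPM. MEF2C, a transcription factor of that group, had 0.749% and 0.765% in control and 2.06% and 2.12% in knockdown (effect 1.41 ± 0.08 SE, limma adjusted p = 1.6e-06). No gene in any of these 3 lists was called lower.

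Stress and folding genes, which respond to damaged protein, rose in most cases and none was called lower. Of 27 heat shock chaperones 23 were called higher, with list medians of 0.377% and 0.365% in control and 0.764% and 0.724% in knockdown, and of 23 genes of the ATF4 and unfolded protein response 18. HSPA8, the constitutive HSP70 chaperone, rose from 0.431% and 0.366% to 0.766% and 0.796%. DDIT3, a transcription factor induced by stress of the endoplasmic reticulum, rose from 0.931% and 1.11% to 2.18% and 2.38%. Aminoacyl-tRNA synthetases were called higher in 15 of 20 cases and proteasome subunits in 26 of 31, with median effects of 1.02 and 0.90. Chaperones had a median effect of 0.89 and the ATF4 list 1.12, against 1.03 for all genes. In the order named, the lists had median abundances of 114, 27.7, 58.5 and 150 CPM. Of all genes 56% were called higher, with 64.6% at 20 to 50 CPM, 76.3% at 50 to 100 and 87.7% at 100 to 1000.

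Metabolic and cytoskeletal lists differed in how many genes were called, and also in abundance. Median abundances were 185 CPM for glycolytic, 221 CPM for actin cytoskeleton and 20.8 CPM for cholesterol synthesis genes. Of all genes at 100 to 1000 CPM 87.7% were called higher, and of those at 20 to 50 CPM 64.6%. Glycolytic enzymes were called higher in 10 of 12 cases, GAPDH going from 0.0984% and 0.172% to 0.407% and 0.319%. Of 23 genes of cholesterol synthesis 13 were called higher, 56.5%, about the 56% of all genes. SQLE, squalene epoxidase, rose from 0.518% and 0.570% to 1.62% and 1.58% (effect 1.48 ± 0.14 SE, limma adjusted p = 1.8e-05). Actin cytoskeleton genes were called higher in 24 of 25 cases with a median effect of 0.84, below the 1.03 of all genes. ACTB, cytoplasmic beta-actin, rose from 0.163% and 0.215% to 0.342% and 0.378%, an effect of 0.78.

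Chromatin and noncoding transcripts varied in the share called, which was 56% for all genes. All 8 tested replacement histone genes were called higher, among them H3-3B, which rose from 0.488% and 0.499% to 1.33% and 1.34%. Replication-dependent histones, whose mRNAs normally lack a poly(A) tail, were poorly covered, with 10 of the 45 genes found in the data tested and 3 called. Of 12 chosen long noncoding RNAs, with a median of 67.8 CPM, 11 were called higher. Of all 290 lincRNA genes tested, with a median of 14.1 CPM, 108 were called higher, 37.2%, and their median effect was 0.98. Of 22 snoRNA host genes 14 were called higher. PVT1 rose from 0.799% and 0.877% to 1.81% and 2.37%, and SNHG5, a snoRNA host, from 0.364% and 0.328% to 0.761% and 1.03%. Of 29 genes of RNA polymerase II and elongation 20 were called higher. POLR2F, a subunit shared by the nuclear polymerases, rose from 0.166% in both control libraries to 0.489% and 0.516%.

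**Figure D3:**
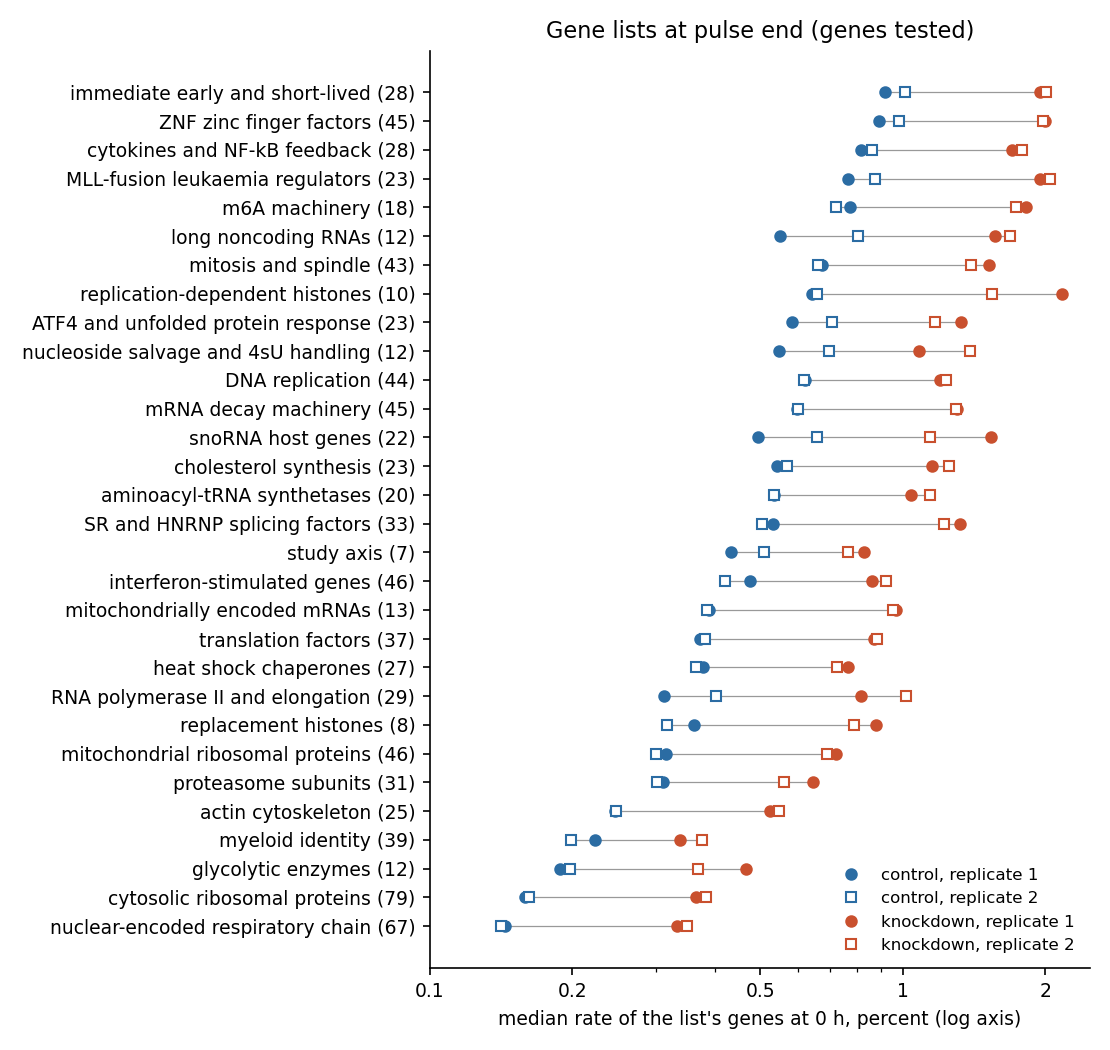
Median conversion rate at 0 h (horizontal axis, percent, log scale) of each gene list (rows, number of genes tested in brackets) in the 2 control libraries (blue) and the 2 knockdown libraries (orange). In every list drawn both knockdown medians lie above both control medians, from 0.142% against 0.350% for the nuclear-encoded respiratory chain to 1.01% against 2.01% for short-lived mRNAs.

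Most genes of the pathway studied were higher in knockdown, and none passed the test once the common shift was removed. ALKBH5 itself, at 4.55 CPM, was below the abundance minimum and was fitted with a minimum of 1 CPM. It had 0.812% and 0.386% in control and 3.31% and 2.46% in knockdown, groups that did not overlap. Its effect was 2.24 ± 0.66 SE (limma adjusted p = 0.022), and 1.20 once the common shift was removed (adjusted p = 0.63). The call was lost without control replicate 2 (limma adjusted p = 0.13), knockdown replicate 1 (0.11) or knockdown replicate 2 (0.063). Since a rate is a share, this value does not test the depth of the knockdown. KDM4C, a histone demethylase that acts upstream of ALKBH5 in the study's model, had 0.816% and 0.678% in control and 1.60% and 1.76% in knockdown (effect 1.12). MYB, a leukaemia transcription factor placed at the same step, had 0.890% and 0.781% against 1.68% and 2.16% (effect 1.15). The receptor tyrosine kinase AXL rose from 0.274% and 0.287% to 0.829% and 0.717% (effect 1.31 ± 0.16 SE, limma adjusted p = 0.00012). PROS1, a ligand of receptors of the same family, went from 0.467% and 0.703% to 2.27% and 1.48% (effect 1.59). The call of PROS1 was lost without control replicate 1 (limma adjusted p = 0.057) or knockdown replicate 1 (0.064).

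MERTK, a receptor related to AXL, had 0.425% and 0.368% in control and 0.437% and 0.767% in knockdown, an effect of 0.50 that did not pass (limma adjusted p = 0.34). GAS6, a ligand of both receptors, had 0.108% and 0.201% against 0.357% and 0.20%, with overlapping groups. POLR2A, the largest subunit of RNA polymerase II, had 0.433% and 0.509% against 0.528% and 0.561%, an effect of 0.19 with a 95% interval of -0.54 to 0.93. For AXL, KDM4C and MYB the centred effects of 0.25, 0.06 and 0.08 had adjusted p-values of 0.66, 0.98 and 0.97, and without a CPM minimum they were -0.25, -0.44 and -0.42. TYRO3 was at 0.741 CPM and was not tested. In all, 4 of 7 tested genes of this list were called higher, against 56% of all genes, and none was called after centring.

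The 12 genes with the largest effects were taken among those called, at or above the median abundance, with rates above 0 in all 4 libraries and no overlap between groups. Effects reached 4.28 among the less abundant genes outside this choice. TROAP, a spindle-associated protein, had the smallest standard error among the 12 named, with 0.337% and 0.350% in control and 2.01% and 2.42% in knockdown (effect 2.52 ± 0.34 SE, limma adjusted p = 0.00020). ENDOV, an inosine-specific endonuclease, rose from 0.338% and 0.641% to 2.83% and 2.57%. SMUG1, a uracil-DNA glycosylase, went from 0.119% and 0.128% to 1.19% and 0.745%. The effects of HEBP2, OLMALINC, TUSC2, NIT1, EXOSC5, NARF, MIF4GD, NSMF and ADAL lay between 2.31 and 2.55. In NARF the control replicates were 0.0200% and 0.469%, further apart on the log scale than the group means. Its call was lost without control replicate 1 (effect 0.90, limma adjusted p = 0.36), knockdown replicate 1 or knockdown replicate 2. HEBP2 was not called without control replicate 1 or knockdown replicate 2, and OLMALINC and NSMF were not called without control replicate 2 or knockdown replicate 1. None of these 12 genes passed after centring, where the smallest adjusted p was 0.069, for TROAP.

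The uncentred test called 10 genes lower in knockdown, all below the median abundance. FAM50A had 0.506% and 1.00% in control and 0.127% and 0.149% in knockdown (effect -2.03 ± 0.48 SE, limma adjusted p = 0.0048). P2RX7, an ATP-gated ion channel of monocytes, had 2.43% and 0.982% against 0.365% and 0.692%. The glutamate transporter SLC1A2 had 0.955% and 1.97% in control and was listed at 0 in both knockdown libraries. The number called lower was 3 without control replicate 1, 2 at a minimum of 20 CPM, 18 with only the 0 h libraries, 29 at a minimum of 1 CPM and 79 with no minimum. The others of the 10 were OFCC1, ABCA17P, ANGPTL6, STK16, SLC51A, C5orf64 and ENSG00000258232, and the 10 had between 6.01 and 20.3 CPM, below the median of 21.6. FAM50A was the only one of the 10 called without each of the 4 libraries in turn, and SLC1A2 and OFCC1 lost the call whichever library was left out. The 10 were named after their values were seen, since no gene lower in knockdown met the rule on abundance. With 10 calls among 10549 genes they form 0.0948% of those tested.

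After each library was centred on its median log2 rate, which took 1.06 log2 from every effect, few genes differed. The centred test called 9 genes higher than the common shift, 0.0853% of those tested, and 131 lower, 1.24%. How many were called depended on the method, and with only the 4 libraries at 0 h in the fit none was called. Quantile normalization called none higher and 5 lower, 0.0474%, and cyclic loess normalization 7 higher, 0.0664%, and 18 lower, 0.171%. Leaving out any of the 4 libraries brought the calls from 140 to between 44 and 66, and 35 of the 131 were called lower without each of the 4 in turn. Without a CPM minimum 0 genes were called higher and 17 lower, and without the variance trend 2 and 19, with none of the myeloid, interferon-stimulated or ribosomal genes described next among the 19. Of the genes described next, KLHDC8A, RPL38, IFI27, IFITM3, B2M, FTH1, LYZ, FCER1G, MALAT1, SERF2, CCSER1, TRABD2A, ART3, ENSG00000251661, ENSG00000257764 and ENSG00000262560 kept their centred call without each of the 4 libraries. Their values, and those of the others, are from the first of these fits.

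Genes above the common shift came from several classes. SON, a nuclear speckle protein needed for splicing, had 0.643% and 0.689% in control and 1.78% and 1.88% in knockdown (centred effect 0.33 ± 0.07 SE, limma adjusted p = 0.028). SAP18, a subunit of the Sin3 histone deacetylase complex that also binds RNA, rose from 0.205% and 0.191% to 0.740% and 0.638%. GIHCG, a long noncoding RNA, rose from 0.258% and 0.280% to 1.16% and 1.09%, a centred effect of 0.82 (limma adjusted p = 0.0044). In all 3 the ratio of knockdown to control exceeded the 2.19 of the library medians. The centred call of SON was lost without any 1 of the 4 libraries, that of SAP18 without control replicate 2 or knockdown replicate 1, and that of GIHCG without knockdown replicate 1 (limma adjusted p = 0.054). Without a CPM minimum the centred effect of SON was -0.17.

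C19orf53, ZC3H15 and H4C3, a replication-dependent H4 histone, had centred effects of 0.75, 0.65 and 0.40. Leaving out any 1 of the 4 libraries ended the calls of ZC3H15, H4C3, FKBP4 and LRRC8C-DT, and 3 of the 4 ended that of C19orf53. Without a CPM minimum H4C3 had -0.10. FKBP4, a cochaperone of HSP90, was listed at 0 in both control libraries and had 0.342% and 0.503% in knockdown, at 5.21 CPM. LRRC8C-DT had 0.0476% and 0.0461% against 0.888% and 2.13%. By cyclic loess normalization ZC3H15 and H4C3 were no longer called (adjusted p = 0.17 and 0.11), the other 7 had adjusted p-values of 0.021 to 0.048, and by quantile normalization none of the 9 was called.

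Some abundant mRNAs of monocyte identity and of the interferon response rose by less than the common shift. Of 39 tested myeloid identity genes, 25 were called higher before centring, against 56% of all genes, and 8 lower after it, against 1.24%. The list had a median of 172 CPM, and these shares depend on abundance. Of all genes at 100 to 1000 CPM 87.7% were called higher and 3.49% lower after centring, and at 1000 CPM or more 94.9% and 22.6%. Quantile normalization called 0 of the 39 lower and cyclic loess 3. The list had a median effect of 0.55, where all genes had 1.03. FTH1, the ferritin heavy chain that stores iron, had 0.192% and 0.187% in control and 0.296% and 0.304% in knockdown (centred effect -0.52 ± 0.06 SE, limma adjusted p = 0.00060). FCER1G, the Fc receptor gamma chain, had 0.515% and 0.523% against 0.745% and 0.636% (centred effect -0.69, adjusted p = 0.00062). LYZ, the bacteriolytic enzyme lysozyme, had 0.0550% and 0.0568% against 0.0900% and 0.0923%. All 3 were higher in knockdown, without overlap between groups, and lower once centred. By cyclic loess the median centred effect of the myeloid list was -0.07 in place of -0.51, and LYZ had -0.01, so for these the shortfall depended on the normalization.

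Interferon-stimulated genes were called higher in 39 of 46 cases before centring, against 56% of all genes, and lower in 6 after it, against 1.24%. Their median was 137 CPM, and of all genes at 100 to 1000 CPM the shares were 87.7% and 3.49%. Quantile normalization and cyclic loess each called 2 of the 46 lower. IFI27, an interferon-induced mitochondrial protein and at 25895 CPM among the most abundant transcripts, had 0.168% and 0.185% in control and 0.234% and 0.224% in knockdown (centred effect -0.76, limma adjusted p = 1.2e-05). IFITM3, a membrane protein that restricts virus entry, had 0.343% and 0.363% against 0.444% and 0.424% (centred effect -0.80, adjusted p = 2.1e-05). B2M, the light chain of class I HLA, had 0.111% and 0.119% against 0.198% and 0.199%. IFI27 and IFITM3 were also called lower by quantile normalization (adjusted p = 0.0042 and 0.013) and by cyclic loess. B2M was called by neither (adjusted p = 0.094 and 0.14). Of these 3 genes, the call thus held under every normalization tried for IFI27 and IFITM3. IFITM3, with an uncentred effect of 0.26, also lies opposite an expressed gene, so reads of the strands cannot be told apart, as described below. Without the variance trend neither passed (limma adjusted p = 0.078 and 0.063, centred).

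MALAT1, an abundant nuclear noncoding RNA, and a few ribosomal and respiratory chain genes also fell short of the shift. MALAT1 had 0.301% and 0.311% in control and 0.512% and 0.515% in knockdown (centred effect -0.40, limma adjusted p = 0.00014). RPL38, a large ribosomal subunit protein, had 0.641% and 0.618% against 0.809% and 0.819% where the list medians were 0.159% and 0.162% against 0.366% and 0.384%. RPL28, of the same subunit, had 0.583% and 0.725% against 0.854% and 0.784%. The difference in percentage points was 0.18 for RPL38 and 0.17 for RPL28, where the list of ribosomal proteins had a median of 0.213. Their gain in percentage points was thus near that of the list, from a higher control rate. ATP5MF, an ATP synthase subunit, had the same pattern, with 0.537% and 0.636% against 0.854% and 0.741%, a gain of 0.21 where its list had a median of 0.180. The centred calls of RPL28 and ATP5MF were lost without control replicate 2 or knockdown replicate 2, and that of RPL28 also without knockdown replicate 1.

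For RPL38 and ATP5MF the mean rates were no lower at 7.5 h of chase than at 0 h. At 7.5 h they were 0.700% in control and 0.989% in knockdown for RPL38, and 0.706% and 0.954% for ATP5MF. CD74, the class II HLA invariant chain, had 0.436% and 0.525% in control and 0.552% and 0.519% in knockdown at 0 h (not called after centring without knockdown replicate 2, limma adjusted p = 0.051), and means of 0.481% and 0.442% at 7.5 h. Over the 131 genes the median log2 ratio of the 7.5 h to the 1.5 h rate in control was 0.09, while over all genes tested it was -0.60. Their control median was 0.136%, against 0.574% for all, and their median abundance 229 CPM, against 21.6. By these medians the genes called lower after centring were more abundant than all genes tested, had lower rates, and had rates that stayed nearly level in control. The effect scale understates change at low rates. In the lowest decile of the control rate at 1.5 h the ratio was 2.02, yet the median centred effect was -0.40 and 6.73% were called lower. With pseudocounts of 0.01 and 0.2, 53 and 504 genes were called lower. What part the scale had in the low rates of the 131 was not tested. The share of genes called also rose with abundance after centring, from 0.0784% lower at 5 to 10 CPM to 22.6% at 1000 CPM or more, and what part the precision of abundant genes had in this was not tested.

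**Figure D4:**
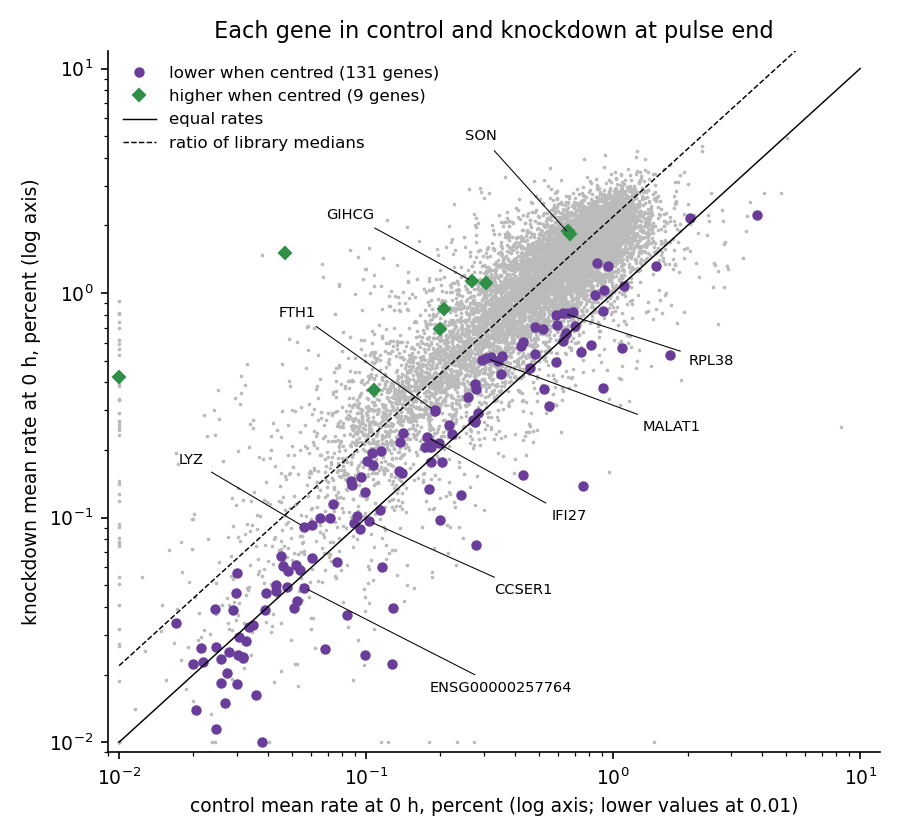
Mean conversion rate of each gene in control (horizontal axis) and knockdown (vertical axis) at 0 h, both in percent on log scales, each mean over 2 libraries. Most genes lie along the dashed line at the ratio of library medians, 2.19, and the 131 genes called lower after centring (purple) lie nearer the solid line of equal rates, many of them at rates under 0.1%.

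Of those 131 genes, 74 had uncentred effects within 0.3 log2 of 0, and most of these lay opposite another expressed gene. In GENCODE 29, 75.3% of the 73 that could be matched had exons of a gene with a CPM of at least 5 on the other strand within their span, against 31.9% of all matched genes tested. Genes annotated as antisense were 26.0% of them and 4.59% of all. Over all 482 antisense genes tested the median effect was 0.53 and the ratio of medians 1.76, at rates where the effect scale understates change. Of the 482, 106 were called higher, 22.0% against 56% of all genes, and 1 lower. After centring 21 were called lower, 4.36% against 1.24%. Their median abundance was 13.7 CPM, and of all genes at 10 to 20 CPM 44.4% were called higher. Whether the authors counted reads by strand is not given in the sources used here, so reads of a gene and of its opposite-strand partner cannot be told apart.

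LYZ and the antisense gene ENSG00000257764 show what such a pair looks like. LYZ lies on the plus strand of chromosome 12 (GRCh38, 69348341 to 69354234) and ENSG00000257764 on the minus strand within it (69353493 to 69354225). A stretch of 30 bases shared by exons of both is printed for each gene 5′ to 3′, at chr12:69354094-69354123, with T, the base in which SLAM-seq reads conversions, in capitals. A second pair is SERF2, on the plus strand of chromosome 15, and ENSG00000262560 on the minus strand, at chr15:43795452-43795481. All sequences are from GENCODE 29 transcripts.
LYZ: gaTTaaTTTaaTTcaTgTaTTaTgaTTaaa
ENSG00000257764: TTTaaTcaTaaTacaTgaaTTaaaTTaaTc
SERF2: cagaaTagTTgTaggaaagaTgcTggacTT
ENSG00000262560: aagTccagcaTcTTTccTacaacTaTTcTg
The positions read for conversions differ between the strands of a pair, since a T of one gene faces an a of the other. The LYZ stretch has 14 T and its partner 12, and the SERF2 stretch has 8 and its partner 10.

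The rates of these pairs went apart. ENSG00000257764 had 0.0574% and 0.0550% in control and 0.0512% and 0.0463% in knockdown (effect -0.11 ± 0.07 SE, limma adjusted p = 0.23), while LYZ, at a like abundance of 1276 against 1217 CPM, rose by 0.41 (adjusted p = 0.00057). ENSG00000262560 had 0.0313% and 0.0299% against 0.0297% and 0.0293%, while SERF2 went from 0.103% and 0.111% to 0.177% and 0.165%. The knockdown rates of both antisense partners lay at or just under those of control.

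Other pairs were chosen in the same way. CCSER1, a gene on chromosome 4 whose intron holds the thymosin pseudogene TMSB4XP8 on the other strand, had 0.101% and 0.104% in control and 0.0977% and 0.0951% in knockdown, while TMSB4XP8 had 0.176% and 0.213% against 0.358% and 0.317%. TRABD2A had 0.0219% and 0.0216% against 0.0234% and 0.0223%, opposite TMSB10, an actin-binding thymosin, with 0.0948% and 0.0966% against 0.156% and 0.148%. ART3 had 0.0221% and 0.0412% against 0.0270% and 0.0203%, opposite the chemokine CXCL10, which rose from 0.348% and 0.298% to 0.806% and 0.687%. In CCSER1 and TRABD2A the control and knockdown libraries lay within 0.01 percentage points of each other. At 7.5 h the means were 0.0987% in control and 0.0978% in knockdown for CCSER1, and 0.0237% and 0.0215% for TRABD2A.

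ENSG00000230021, a pseudogene transcript, had 0.0964% and 0.0916% against 0.0872% and 0.0900%, while MTND2P28, a pseudogene of a mitochondrial complex I gene on the other strand, rose from 0.590% and 0.522% to 1.22% and 1.24%. ENSG00000251661 had 0.0356% and 0.0429% against 0.0559% and 0.0362%, opposite IFITM3, whose own effect was within 0.3 of 0. These genes and their partners were chosen after their values were seen, as the most abundant with an effect within 0.3 of 0 and an expressed gene on the other strand. What keeps their rates level was not tested.

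**Figure D5:**
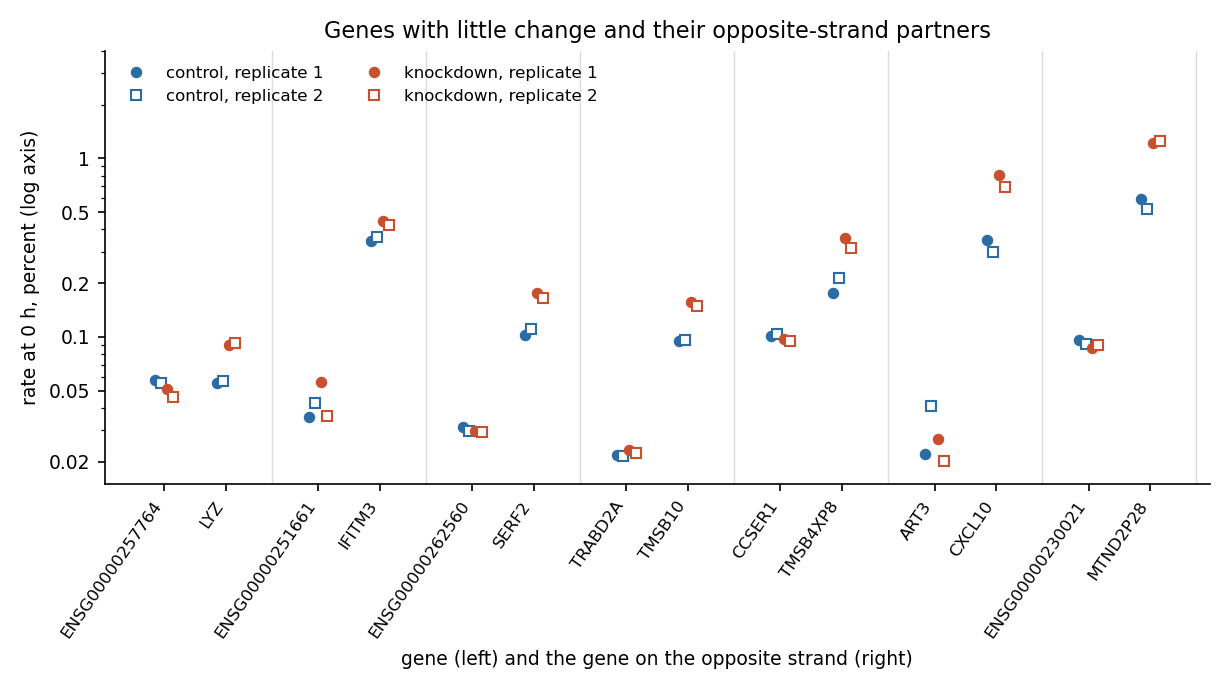
Conversion rates at 0 h (vertical axis, percent, log scale) in each of the 4 libraries for 7 genes with little change (left of each pair) and the gene on their opposite strand (right). The control and knockdown points of the left genes, such as CCSER1 at 0.0951% to 0.104%, lie together, while those of LYZ, SERF2, TMSB10, CXCL10 and MTND2P28 lie apart with knockdown higher.

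Not every level gene had such a partner. ISOC2 had 0.646% and 0.627% in control and 0.629% and 0.674% in knockdown, GUK1, a guanylate kinase, 0.464% and 0.720% against 0.739% and 0.695%, and the lysosomal protease CTSD 0.189% and 0.176% against 0.202% and 0.213%. None of these 3 faced a gene at 5 CPM or more. CTSD and GUK1 were called lower after centring in the first fit (limma adjusted p = 0.021 and 0.043) but not by cyclic loess (0.17 and 0.11), and ISOC2 by both (0.012 and 0.039). The calls of CTSD and ISOC2 were lost without any 1 of the 4 libraries, and that of GUK1 without control replicate 2, knockdown replicate 1 or knockdown replicate 2.

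Most genes called after centring at pulse end had centred effects of the same sign later. Of the 131 genes called lower after centring, 88.5% had centred effects below 0 at all 3 later times, against 21.3% of all genes tested. Their median centred effect was -1.01 at 0 h and -0.87, -0.81 and -0.70 at 1.5, 4.5 and 7.5 h. Of the 9 called higher, 6 had centred effects above 0 at all later times, against 17.2% of all genes. DEF8 and ISOC2, called lower after centring at 0 h, had later uncentred effects of 1.04, 1.28 and 1.79 and of 1.05, 0.76 and 1.04. The later libraries entered the fit only through the spread between replicates, so these effects come from other libraries than those that chose the genes. The common shift was present throughout, with library medians 2.32, 2.31 and 2.11 times as high in knockdown at 1.5, 4.5 and 7.5 h.

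No gene passed the test of a pulse-end effect different from the mean of the 3 later effects. That test, in limma over 10549 genes, called 0 uncentred (0%) and 0 centred (0%), and 1 with a pseudocount of 0.01, with smallest adjusted p-values of 0.446 and 0.451. At an unadjusted p under 0.05 there were 588 genes uncentred and 586 centred, 5.57% and 5.56%. The median difference was -0.01 and its median standard error 0.43 log2, so a difference of a size common among single genes was not detectable here.

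The genes with the smallest p in that contrast are named as a description. CCNC, cyclin C of the Mediator kinase module, had 0.489% and 0.350% in control and 1.55% and 1.70% in knockdown at 0 h, an effect of 1.85 against 1.15, 0.21 and 0.83 later. BBIP1, a subunit of the BBSome of primary cilia, had 1.65 against 0.63, 0.81 and 0.15. DEF8 had 0.135% and 0.271% against 0.213% and 0.139% at 0 h, an effect of -0.13, and ISOC2 had 0.03, with the later effects given above. KLHDC8A had 0.33 against -0.12, -0.06 and 0.10. Their adjusted p-values were 0.679 to 0.779. For AXL the difference between 0 h and later was 0.12 with a 95% interval of -0.29 to 0.53, for KDM4C -0.03 (-0.54 to 0.47) and for MYB -0.50 (-1.08 to 0.08).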

How the data were processed

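Each of 16 SLAM-seq libraries of polyadenylated RNA from THP-1 cells gave 1 value per gene, a fraction that the authors deposited without naming it. Its range and the assay led to reading it as a T-to-C conversion rate, printed in percent. The deposited table also held a single CPM value per gene, per the file headers, with no library named, which served to select, order and weight genes by abundance. The submitters' processing notes, which give no roles, name hg38, HISAT2 2.1.0 and CASAVA. Not given in the sources used here are the conversion caller, annotation, variant masking and use of strand. The conversions and T bases behind each rate were not analysed here, so depth is unknown, and values carry no counting interval. The table lacked a symbol for 41255 genes, of which 41027 were filled from the reference's gene names.

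Rates were compared as log2(rate in percent + 0.05) in limma 3.58.1 (R 4.3.3), with 8 group means over 16 libraries, 2 per group, and variances moderated toward a curve over log2(CPM + 0.01). Calls were made at a Benjamini-Hochberg adjusted p of 0.05 over the 10549 genes that reached 5 CPM and had a nonzero rate somewhere. An exact permutation test of 2 libraries against 2 cannot go below p = 0.333 and was not used. The effect is knockdown minus control at 0 h. For centred effects each library's median log2 value was subtracted first. A further contrast set the 0 h effect against the mean of the effects at 1.5, 4.5 and 7.5 h. The procedure was tested on simulated data. The alternatives, given in the closing section, were other pseudocounts, CPM minimums and variance models, a replicate block, libraries left out, only the libraries of 0 h, and quantile or cyclic loess normalization in place of centring. Opposite-strand genes and sequences came from GENCODE 29 (GRCh38), in which 99.5% of the genes tested were found.

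The genes compared and the lists were chosen with earlier results of these data known. Named were the genes of the study's axis, up to 12 higher and 10 lower genes by uncentred effect, up to 15 per direction by centred effect, the 3 with the smallest p per direction in the contrast with later times, and for each list the 4 most abundant members and up to 3 called after centring. For the effects, genes had to be called, have a rate above 0 in all 4 libraries, lie at or above the median CPM, and have groups that did not overlap, read on centred values where the effect was centred. Genes called higher after centring, the 10 called lower uncentred, and the nearly level genes with their opposite-strand partners were added after values were seen. Some genes that met these rules are not reported here.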

Additional observations from a re-analysis of the deposited data

How the results depend on the processing

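The pulse-end count of 5913 uncentred calls stayed within 1.5 times of its value under every alternative run, and without 1 library it lay between 3969 and 4385, while the 10 lower calls within it ranged from 2 at a minimum of 20 CPM to 79 with none. The median effect of 1.03 was 1.10 and 0.84 with pseudocounts of 0.01 and 0.2, 0.82 without a CPM minimum, and 1.01 to 1.04 without 1 library. The 140 centred calls became 60 and 539 with those pseudocounts, 89 with a CPM minimum of 1, 17 with none, 21 without the variance trend, 5 by quantile and 25 by cyclic loess normalization, and 44 to 66 without 1 library. With only the 4 libraries at 0 h in the limma fit 0 genes were called, 1276 having an unadjusted p under 0.05. The contrast of 0 h with later times called 0 genes, and 1 with a pseudocount of 0.01, centred or not. Without 1 library it called 0 to 0, uncentred and centred. The cause of these changes was not tested.

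Control and knockdown share replicate numbers. Deviations of same-numbered libraries at 0 h had r = 0.0127 across genes, and from -0.0396 to 0.0376 over all 28 pairs of groups. By this measure no pairing by number was seen. The spread of single genes can mask a shared deviation, so pairing is not excluded. A replicate block gave 5901 uncentred and 114 centred calls and no gene in the contrast with later times.

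Of the named genes' uncentred values under the alternatives, 1127 kept direction and call, 76 lost the call, 2 gained it and 8 turned. Of the centred values 384 kept both, 263 lost the call, 2 gained it and 11 turned. None of the turned values passed the test. Without a CPM minimum the centred effects were -0.44 for KDM4C, -0.42 for MYB, -0.25 for AXL, -0.10 for H4C3 and -0.17 for SON. By cyclic loess KLHDC8A had 0.32 and TRABD2A 0.010. Without 1 library the uncentred effects ran from -0.52 to 0.27 for DEF8, -0.017 to 0.077 for ISOC2, -0.53 to 0.51 for SGK1, -0.050 to 0.25 for ENSG00000251661, -0.31 to 0.029 for ART3 and -0.0069 to 0.58 for GUK1, and the centred effects from -0.089 to 0.20 for KDM4C and -0.11 to 0.27 for MYB. The unknown number of bases behind each rate and 2 libraries per group limit what single genes can show.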
